A study of Rattus norvegicus with 2 samples.

Results

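Fat cells store triglyceride in lipid droplets, release it as fatty acids by lipolysis, and secrete hormones called adipokines. White fat keeps energy in 1 large droplet per cell, whereas brown fat burns fatty acids to make heat through the uncoupling protein UCP1. Lymph nodes, among them the cervical nodes of the neck, lie embedded in fat tissue. The genes described here are 37 named genes of fat cell lipid handling, adipokines, and heat production, found on the arrays by their gene name. Of these, 36 had a probe under that name and 28 were well above background, all 28 on both arrays, out of 21096 genes well above background on at least 1 array.

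The RNA came from cervical lymph nodes of male Sprague-Dawley rats aged 10 to 12 weeks. The control (C) group was not stressed, and the other group underwent restraint stress (RS), in which rats were tied by the legs to a board on their backs. Each group was represented by 1 array, so that no test was possible and every difference below lacks a replicate check. The labels do not give the restraint time of the RS array, which the paper places in its RS30 group, and they do not state whether RNA was pooled over rats. The scan recorded in the file headers is earlier than the experiments by the dates in the paper, so that the experiment, restraint time, and rats behind the arrays are uncertain. All rats were under halothane and a pentobarbital overdose before the nodes were taken. The sources do not say how far the tissue around the nodes was trimmed.

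Each array carried 60-base probes and was read in 1 color. The arrays shared 1 slide and 1 scan. Of 45598 probes, 54.7% (C) and 54.9% (RS) exceeded background clearly, and no probe was saturated. Values are processed intensities, and each difference is the log2 intensity of the RS array minus that of the C array after the 75th percentile of each array (189 and 176) was subtracted. The error beside a difference is that of the spots alone. It is set mostly by the 10% that the scanner software assigns to every spot, and it holds no difference between rats. Lymphocyte markers were present on both arrays, and Cd3d, a chain of the T cell receptor complex, had intensities of 13198 and 11126.

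The probes that carried the largest differences are given by their first 30 bases, read 5′ to 3′ along the transcript strand, with positions in rn4, the rat build named by the file headers. They show what each measurement below was made with. For leptin, both of its probes are listed, because only the first of them was above background.
Plin4, chrUn:25692318-25692377, forward strand: agcctacagctgagcctcatcacatcatgc
Lep, chr4:55948507-55948566, forward strand: ttgttcccagattgtgaaacttcccatatg
Lep, other probe, chr4:55945879-55945938, forward strand: cagggctctctgcaggacattcttcaacag
Aqp7, chr5:58433937-58433996, reverse strand: gggtgcctacttaggtggcattgtatacct
Cidec, chr4:149309002-149314127, reverse strand, spanning 5126 bases of the genome: actcgctttcatatgacctgcactgctaca
Gpd1, chr7:138466022-138466081, forward strand: agaattcagtcttatcaatgaaggtcagag
Adipoq, chr11:79908299-79908358, reverse strand: ctttgagggttctgagtgttatccccatga

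In the comparison of the RS array with the C array, 27 of the 28 detected fat cell genes lay above 0 and 15 were higher by 2-fold or more. None was lower by 2-fold or more. Among all 21096 detected genes, 3.46% were higher and 4.28% were lower by 2-fold or more, and 52.1% lay above 0. Among the 19214 genes detected on both arrays, these shares were 2.57%, 3.13%, and 52.2%. The median difference of the 28 genes was 1.18, or 2.26-fold, compared with 0.016 over all detected genes. In bulk RNA, a larger number of cells of a type and more RNA per cell cannot be told apart. The differences were uneven among the genes, and their differences ran from -0.05 for Cd36 to 3.71 for Plin4. By role, the medians were 2.97 for the lipid droplet coat, 2.66 for adipokines, 1.47 for uptake and transport, 0.76 for lipogenesis, and 0.53 for lipolysis. With the normexp background correction, whose offset raises every signal, the median of the 28 genes was 0.73, and the order of the top roles turned, with 2.48 for adipokines and 1.31 for the droplet coat. The median of the coat rests on 3 of its 5 genes and was 0.98 without a background filter.

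**Figure D1:**
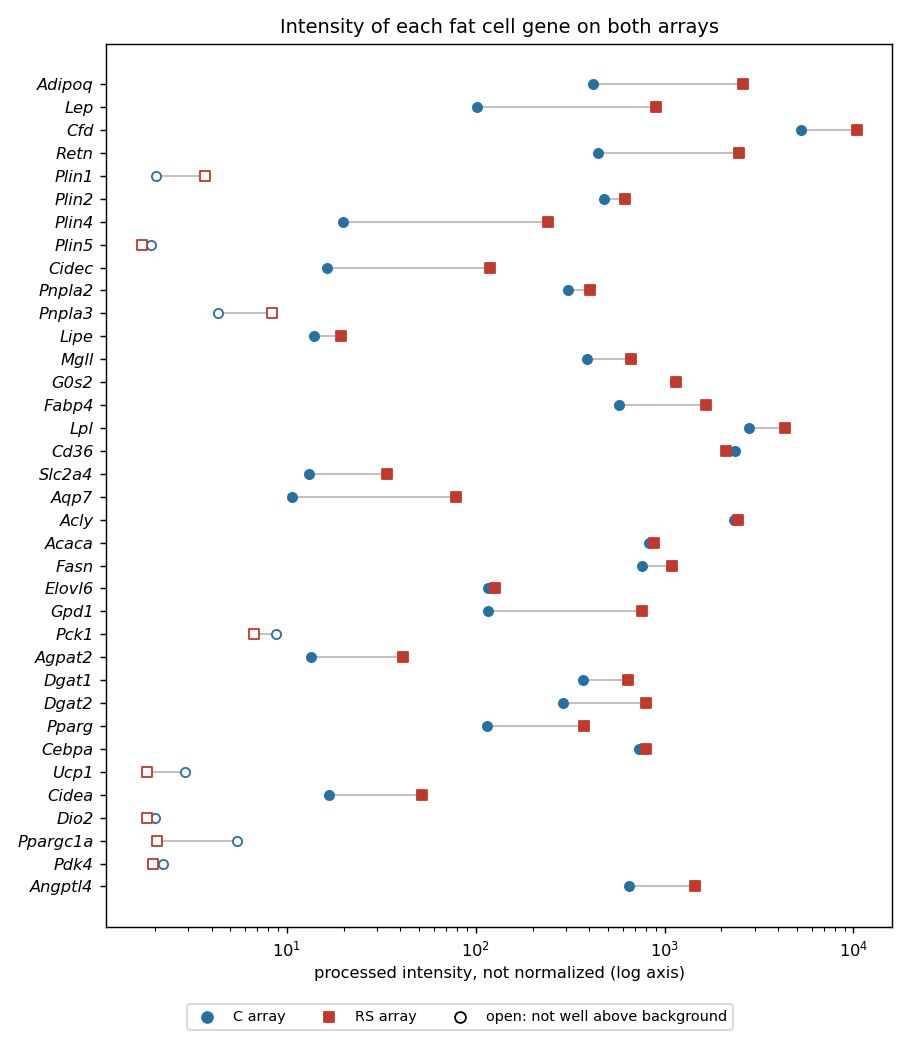
Processed intensity (log axis, not normalized) of the 36 fat cell genes with a probe, on the C array (circles) and the RS array (squares), 1 value per array and gene. Filled symbols are well above background and open symbols are not; the 8 genes with open symbols reach an intensity of at most 8.78, and Plin4, Lep, Aqp7 and Cidec have the widest gaps.

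**Figure D2:**
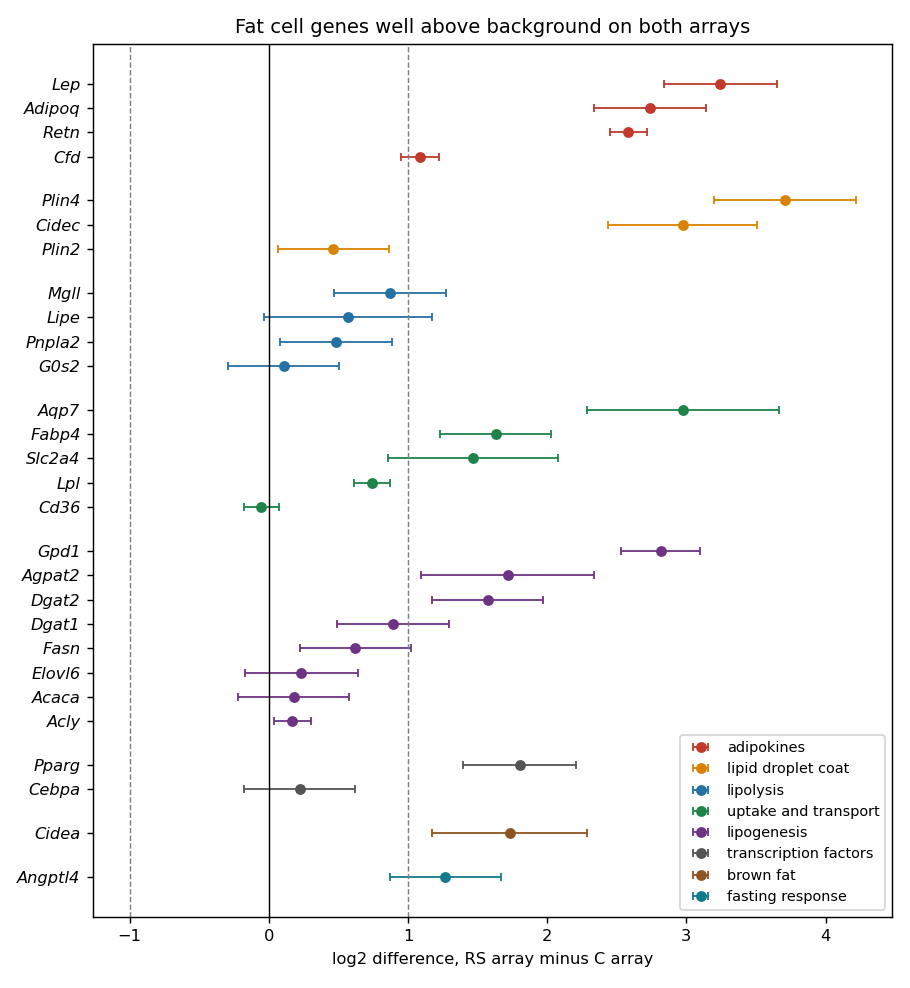
Log2 difference of the RS array minus the C array for the 28 detected genes, ordered within each role. Bars are 95% intervals from the spot error alone, dashed lines mark 2-fold, and 15 points lie at or beyond 2-fold, with no gene of lipolysis among them.

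Adipokines were all higher on the RS array. Leptin (Lep), the hormone that reports the size of fat stores to the brain, went from an intensity of 102 on the C array to 904 on the RS array, a log2 difference of 3.24 ± 0.21 (spot error), or 9.47-fold. The other leptin probe read 2.19 and 3.02, too dim on both arrays to be well above background. Adiponectin (Adipoq), which enhances insulin action, had intensities of 420 and 2615, a difference of 2.74 ± 0.20. Both hormones were thus several-fold higher on the RS array, by more than the error of their spots. Resistin (Retn) went from 445 to 2491, a difference of 2.58 ± 0.07, and did not differ from adiponectin beyond the spot error (0.16 ± 0.22). Cfd encodes adipsin, the complement protease factor D, and went from 5251 to 10400, a difference of 1.08 ± 0.07. Its ratio of 2.12-fold was the smallest of the 4 adipokines, and the gap between leptin and Cfd was 2.16 ± 0.22 on the log2 scale. Without normalization between the arrays, Cfd did not reach 2-fold (0.99).

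The genes of the lipid droplet coat split between 2 large differences, 1 small one, and 2 genes without a signal. Plin4, a perilipin abundant on the droplets of white fat cells, went from 19.9 on the C array to 243 on the RS array, a difference of 3.71 ± 0.26, which ranked 1 among the 28 genes. With normexp it was 1.94 and below Lep (2.64), Adipoq (2.56), Retn (2.41), and Gpd1 (2.31). Cidec, which fuses small droplets into large ones, went from 16.3 to 119.6, a difference of 2.97 ± 0.27, or 1.31 with normexp. Plin2, which coats droplets in most cell types, had intensities of 480 and 618, a difference of 0.46 ± 0.20. Plin4 therefore exceeded Plin2 by 3.25 ± 0.33 on the log2 scale. Plin1, the perilipin that guards the droplet of fat cells and is among their defining markers, read 2.02 and 3.71, so that neither array had a signal well above background. The accession its probe was designed from is not among the transcripts that RefSeq lists for Plin1 in the GRCr8 assembly. The same held for the chosen probes of Lpl, Acaca, and Mgll, which were well above background on both arrays. Plin5, the perilipin of oxidative tissues, read 1.90 and 1.71, also not above background.

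Lipolysis is carried out in 3 steps by the lipases ATGL (Pnpla2), HSL (Lipe), and monoacylglycerol lipase (Mgll). None of the 4 detected genes of this role reached 2-fold. Pnpla2 had intensities of 309 and 403 and a difference of 0.48 ± 0.20, and Mgll had 389 and 664 with a difference of 0.87 ± 0.20. The other probe for Mgll gave a similar difference of 0.81 ± 0.22. Lipe was dim, at 14.0 and 19.4, and its difference of 0.57 ± 0.31 was not resolved from 0, with a 95% interval of the spot error from -0.03 to 1.17. Its other probe, at 14.8 and 12.9, lay on the other side of 0, at -0.10 ± 0.34. G0s2, the inhibitor protein that binds ATGL, was nearly equal on both arrays, at 1142 and 1149, a difference of 0.11 ± 0.20. Pnpla3, a lipase relative expressed in liver and fat, read 4.34 and 8.40 and was not well above background.

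**Figure D3:**
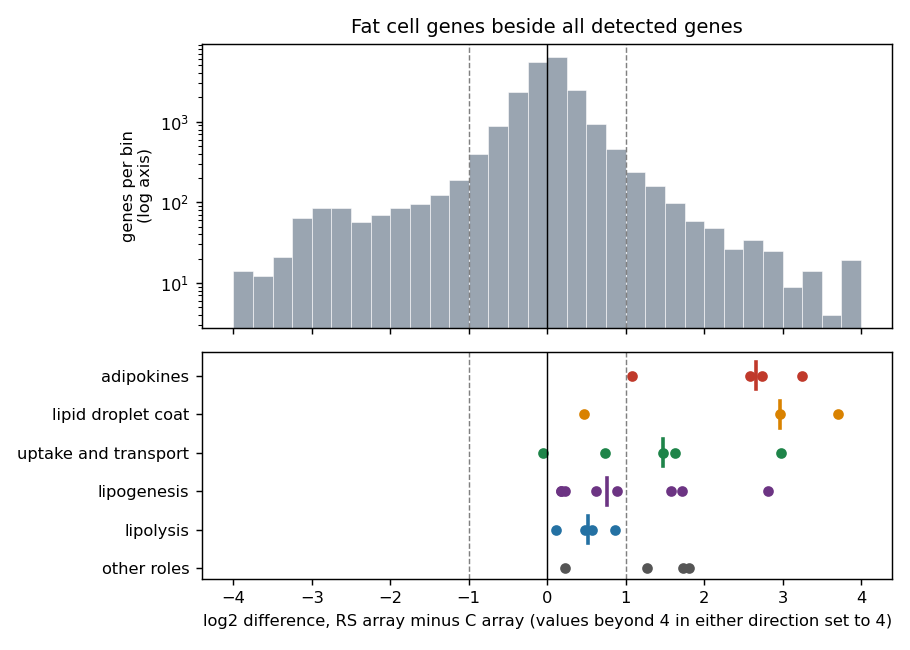
Upper panel, the number of detected genes per bin of 0.25 in log2 difference (log axis). Lower panel, the 28 fat cell genes by role on the same horizontal axis, with a vertical bar at each role's median. The adipokines and the droplet coat have medians of 2.66 and 2.97 and lipolysis one of 0.53, while the bulk of all genes lies around 0.

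Among the genes of uptake and transport, the channel and carrier genes were higher and the fatty acid receptor was not. Aqp7, the water channel through which glycerol leaves fat cells, went from 10.7 to 78.4, a difference of 2.98 ± 0.35, or 1.01 with normexp. Fabp4, the fatty acid binding protein of fat cells and some macrophages, went from 575 to 1661, a difference of 1.63 ± 0.20. Slc2a4, which encodes the insulin-responsive glucose transporter GLUT4, went from 13.1 to 33.8, a difference of 1.47 ± 0.31. All 3 were past 2-fold, although with normexp Slc2a4 was under it, at 0.42. Lpl, the lipase that frees fatty acids from lipoproteins in capillaries, had intensities of 2794 and 4355, a difference of 0.74 ± 0.07, and its other probe gave 0.62 ± 0.20. Cd36, a fatty acid receptor shared by macrophages, platelets, and capillary endothelium, had 2349 and 2114, a difference of -0.05 ± 0.06. Its 95% interval for the spot error alone ran from -0.18 to 0.07. Its other probe was above background on the RS array only, at 5.30 and 8.52.

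Of the detected genes, 5 were read by probes printed in 10 spots, which gives the fullest view of the measurement spread. Gpd1 was printed in 2 spots, which read 115.6 and 116.3 on the C array and 729 and 796 on the RS array. On the normalized log2 scale, the spots for Retn lay between 1.11 and 1.30 on the C array and between 3.79 and 3.89 on the RS array. Those for Cfd lay between 4.70 and 4.84 and between 5.80 and 5.97, and those for Lpl between 3.79 and 3.96 and between 4.46 and 4.73. In these 3 genes the spots of the arrays did not overlap. The spots of a probe re-read the same labeled RNA, so their separation holds no difference between rats. How often spots separate among all probes printed 10 times was not computed. The spots for Cd36 overlapped nearly over their whole range, from 3.52 to 3.74 on the C array and from 3.51 to 3.68 on the RS array. Acly, with 3.49 to 3.75 and 3.75 to 3.84, touched at the edge.

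**Figure D4:**
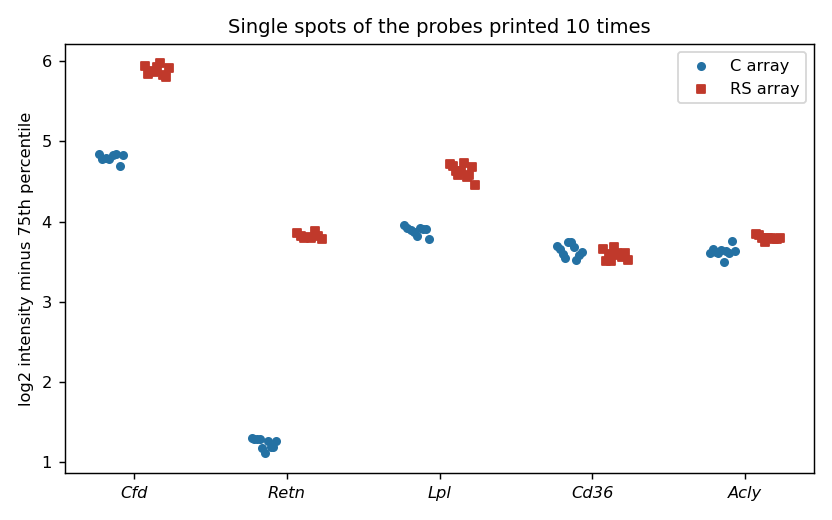
Single spots of the 5 fat cell genes whose probe was printed 10 times, as normalized log2 intensity, for the C array (circles) and the RS array (squares), without spots flagged as outliers. Spots for Cfd, Retn and Lpl separate by array, those for Cd36 overlap, and those for Acly meet at 3.75.

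Lipogenesis makes fatty acids from acetyl-CoA and joins them to a glycerol backbone. Grouped in this way after the values were seen, the enzymes of fatty acid synthesis and those of glyceride assembly had differences from 0.17 to 0.62 and from 0.89 to 2.81. The split did not hold more widely: with normexp Agpat2 (0.51) was below Fasn (0.54). In a further list of fat cell genes, Gpam, the acyltransferase of the first assembly step, was at -0.02 ± 0.22, and Lpin1, a phosphatidate phosphatase, at 0.73 ± 0.21. Acly, which supplies cytosolic acetyl-CoA, went from 2331 to 2450, a difference of 0.17 ± 0.07. Acaca, the acetyl-CoA carboxylase, had a difference of 0.18 ± 0.20 at intensities of 829 and 877. Both were thus close to equal on the arrays. The other 2 probes for Acaca, at intensities of up to 32.6, gave -0.46 ± 0.34 and 0.49 ± 0.25 and lay on opposite sides of 0. Elovl6, which lengthens palmitate, had a difference of 0.23 ± 0.21 at 116 and 127. Fasn, the fatty acid synthase, had 762 and 1095, and its difference of 0.62 ± 0.20 was the highest of these enzymes. The desaturase Scd had no probe under that name, but the probe named Scd1 carries an accession that RefSeq assigns to Scd. It read 983 and 1362, a difference of 0.57 ± 0.20, and was not counted among the 28 genes.

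In glyceride assembly, Gpd1, the dehydrogenase that makes glycerol 3-phosphate, went from 116 to 762, a difference of 2.81 ± 0.15, or 7.03-fold. This exceeded the difference of Fasn by 2.19 ± 0.25 and that of Acly by 2.64 ± 0.16. Agpat2, which adds the second fatty acid, went from 13.5 to 41.3, a difference of 1.72 ± 0.32. With normexp, Agpat2 was at 0.51 and under 2-fold. The acyltransferases of the last step differed from each other: Dgat2 went from 288 to 801 (1.57 ± 0.20), whereas Dgat1 went from 370 to 640 (0.89 ± 0.20), a gap of 0.68 ± 0.29. Pck1, which makes the backbone from pyruvate by glyceroneogenesis, read 8.78 and 6.74 and was not well above background.

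Of the transcription factors that drive fat cell differentiation, Pparg went from 115 to 374, a difference of 1.80 ± 0.21, or 3.49-fold. Cebpa, which is also expressed in myeloid cells, was nearly equal at 729 and 795, a difference of 0.22 ± 0.20. The gap between both factors was 1.58 ± 0.29. The other probe for Cebpa gave 0.16, close to the first.

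Of the brown fat genes, only Cidea was detected. Cidea, a droplet protein of brown fat and a relative of Cidec, went from 16.8 to 52.1, a difference of 1.73 ± 0.28, with 0.58 under normexp. Ucp1, the uncoupling protein that defines brown fat, read 2.90 on the C array and 1.82 on the RS array, and neither value was well above background. Dio2, the deiodinase that activates thyroid hormone, read 2.02 and 1.81. Ppargc1a, the coactivator of mitochondrial genes, read 5.46 and 2.05 on its brighter probe. The brown fat genes other than Cidea thus had no level that could be compared.

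The remaining pair of genes responds to fasting and glucocorticoids in fat. Angptl4, which inhibits the lipase encoded by Lpl, went from 647 to 1455, a difference of 1.27 ± 0.20, or 2.41-fold. Pdk4, the kinase that shuts off pyruvate dehydrogenase, read 2.20 on the C array and less on the RS array, and neither value was well above background.

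The probes of 9 detected genes could be compared with another detected probe of the same gene. In 6 of them all probes lay on the same side of 0, and in Acaca, Cd36, and Lipe they did not. None of these 9 genes was past 2-fold, so that no difference past 2-fold could be checked by another detected probe. Of the 15 genes past 2-fold, 12 had a 95% interval of the spot error that stayed past 2-fold. The exceptions were Cfd, Slc2a4, and Angptl4. Agpat2 and Cidea were among the 12 but under 2-fold with normexp (0.51 and 0.58). The same share among all genes past 2-fold was not computed.

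A further list of 30 genes of fat cells was set beside these. Of its 29 detected genes, 13 were higher and 3 were lower by 2-fold or more, and the median difference was 0.87. The 3 highest among genes measured on both arrays were Thrsp, a regulator of lipogenesis, from 61.0 to 422 (2.89 ± 0.21), Mrap, the melanocortin receptor accessory protein, from 25.9 to 149 (2.63 ± 0.23), and Tusc5, a GLUT4 trafficking protein, from 113 to 601 (2.51 ± 0.21). Adrb3, the adrenergic receptor that switches on lipolysis in fat cells, went from 10.1 to 38.9 (2.05 ± 0.35). Its C intensity was near the lowest that was above background on that array (9.45). The 3 lowest on both arrays were Insr, the insulin receptor, from 249 to 45.9 (-2.34 ± 0.21), Lgals12, a galectin of fat cells, from 936 to 269 (-1.70 ± 0.20), and Ffar4, a fatty acid receptor, from 56.7 to 37.9 (-0.48 ± 0.23). Mlxipl, which encodes the sugar-sensing factor ChREBP, was above background on the C array only and was at least 3.29-fold lower on the RS array. A list of 12 other brown fat genes had 7 detected, with a median of -0.03 and no gene past 2-fold. Among them, Esrrg (0.03) was the highest and Lhx8 (-0.42) the lowest measured on both arrays. Of 10 genes of mitochondrial fatty acid oxidation, all were detected and none was past 2-fold, with a median of 0.03 and a range from -0.19 for Etfdh to 0.61 for Cpt1b.

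The probes for Insr and Lgals12 share a feature of sequence. Each holds a run of at least 6 alternating A and G bases, as do 408 (45.2%) of the 903 genes lower by 2-fold or more and 4.80% of all detected genes. The stretches of 30 bases that contain the runs, shown in capitals, are these, with those of Rbp4 and Cd36 for comparison.
Insr, chr12:3086616-3086675, forward strand: cctctcactgtcAGAGAGAagaggctggat
Lgals12, chr1:210331012-210331071, reverse strand: GAGAGAatgctaatatactgccttaaagtt
Rbp4, chr1:242443795-242443854, reverse strand: ccGAGAGAcgtttgaggcttgggattccaa
Cd36, chr4:13525426-13525485, forward strand: taatgtaacttcAGAGAGctgttatagtgt
Insr had another probe without such a run, which read 16.9 and 17.0, a difference of 0.10 ± 0.33, in contrast with -2.34 for the probe with the run. The other probe for Lgals12 was not well above background. Rbp4, the retinol carrier that fat cells secrete, was higher, from 438 to 2146 (2.39 ± 0.14), and Cd36 was equal. Among the 730 detected genes higher by 2-fold or more, 21 had such a run. Of the 28 fat cell genes, Cd36 alone (3.57%) was read by a probe with such a run, so that none of the 15 genes past 2-fold was. The part of these runs in the lower values was not tested.

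Genes of other cells moved with the fat cell genes in part. Of the 7 stromal genes, 3 were higher by 2-fold or more, with a median of 0.79. The intensities of all 7, before normalization, summed to 9253 (C) and 18578 (RS), mostly from collagen genes. Col3a1, a fibrillar collagen chain, was the highest at 1.33 ± 0.07, and Pdgfra, a receptor of fibroblasts and fat cell precursors, was the lowest at -0.39 ± 0.14. All 3 detected erythrocyte genes were higher by 2-fold or more, with a median of 1.42 and Alas2, the heme synthesis enzyme of red cell precursors, the highest at 2.86. The median was 0.09 for endothelial genes, with Emcn at 1.17 and Cdh5 at -0.41, and -0.10 for macrophage genes, with Mrc1 at 0.45 and Csf1r at -0.34. It was 0.02 for B cell genes, with Pax5 the lowest at -0.05, and -0.16 for T cell genes, between Cd2 at -0.64 and Cd4 at 0.01. Skeletal muscle genes had a median of -0.23, from Actn3 at -0.32 to Tnnt3 at 0.37, and of 6 salivary gland genes only Bhlha15 (-0.30) was measured on both arrays. Of the 6 genes fixed as fat cell markers (Adipoq, Lep, Plin1, Cidec, Lipe, and Fabp4), all but Plin1 were also detected in the control node RNA. The part of stromal cells or blood in the fat cell values was not tested.

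**Figure D5:**
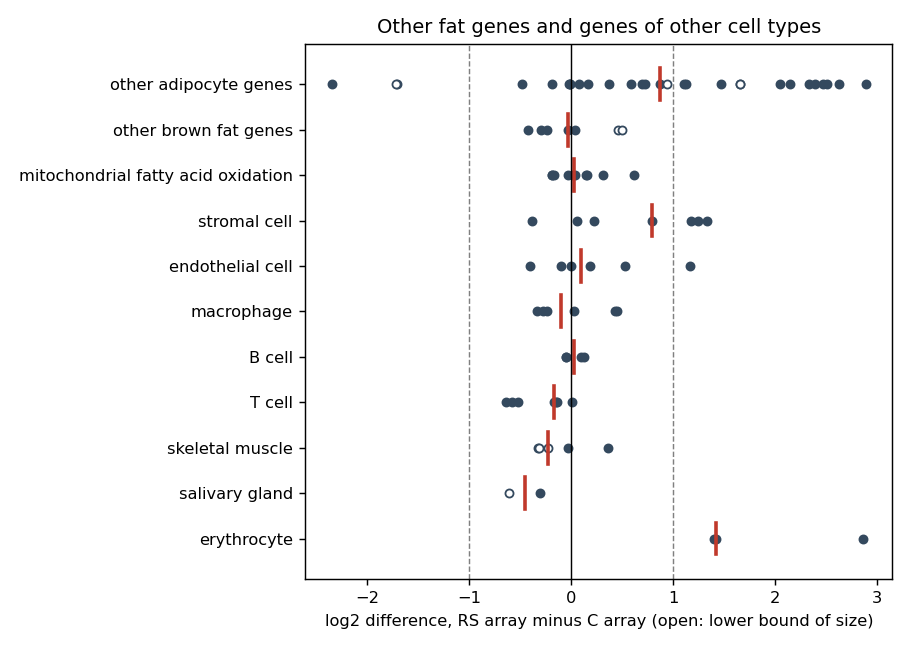
Log2 difference of the RS array minus the C array for genes of 3 further fat and lipid lists and 8 cell type lists, 1 point per detected gene, with open points for lower bounds and a bar at each median. The other fat cell genes spread from -2.34 to 2.89, the stromal and erythrocyte lists lie mostly above 0, and the T cell list lies between -0.64 and 0.01.

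The promoters of the fat cell genes were searched for letters bound by the factors named above. RefSeq sequences of GRCr8, from 250 bases before to 50 after the gene start, matched 26 of the 37 genes. The C/EBP site TTNNGCAA, on either strand, occurred in 3 of them and in 10.6% of all 33469 promoters. The core site of nuclear receptors, AGGTCA, occurred in 4 of them (15.4%) and in 16.2% of all. Direct repeats of that core with a 1-base gap (DR1), the arrangement that PPARG binds, occurred in 0 of 26 and in 0.0538%. The shares for the C/EBP site and the receptor core were close to those of all promoters. The cAMP response element (CRE) occurred in 2 of 26 (7.69%), Pnpla3 and Ppargc1a, and in 1.83% of all, and both genes were not well above background. The glucocorticoid response element (GRE) occurred in 0 of 26 and in 0.0388%. Exact matches to DR1 and GRE were rare, in 18 and 13 of all 33469 promoters. Their absence from 26 promoters therefore shows nothing about these genes. Among genes past 2-fold, the matches were in Lep and Cidec for C/EBP and in Retn for the receptor core, and the 250 bases before their start are shown with the matches in capitals.
Lep, chr4:58626288-58626537, forward strand: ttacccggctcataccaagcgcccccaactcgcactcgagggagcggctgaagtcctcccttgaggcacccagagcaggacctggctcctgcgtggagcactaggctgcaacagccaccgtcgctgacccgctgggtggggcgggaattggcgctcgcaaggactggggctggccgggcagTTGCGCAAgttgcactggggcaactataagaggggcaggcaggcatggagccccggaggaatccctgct
Cidec, chr4:148137116-148137365, reverse strand: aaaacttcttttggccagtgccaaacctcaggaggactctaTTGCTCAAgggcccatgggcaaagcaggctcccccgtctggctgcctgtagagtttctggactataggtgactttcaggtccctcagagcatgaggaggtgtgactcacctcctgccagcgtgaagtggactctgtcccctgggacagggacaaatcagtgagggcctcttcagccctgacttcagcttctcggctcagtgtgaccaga
Retn, chr12:6508524-6508773, forward strand: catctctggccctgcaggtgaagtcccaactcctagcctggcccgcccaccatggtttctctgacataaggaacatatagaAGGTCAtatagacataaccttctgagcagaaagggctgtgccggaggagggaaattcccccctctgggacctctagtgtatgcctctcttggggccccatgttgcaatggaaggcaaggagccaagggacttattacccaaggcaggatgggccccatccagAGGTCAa
The C/EBP match of Lep begins 69 bases before the start and that of Cidec 209 bases before it, where the capitals of Cidec read the site on the opposite strand. The receptor cores of Retn begin 169 and 7 bases before its start. The promoter of Adipoq, whose difference was similar to that of Retn, held neither of these motifs. A match is a description of letters and not of binding.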

How the data were processed

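RNA of rat cervical lymph nodes was hybridized to 1 C and 1 RS array (Agilent SurePrint G3 Rat GE design). The authors labeled RNA with Cy3 and read the spots by Feature Extraction (version 11.5.1.1). The intensity values were deposited with background already subtracted within each array. A second deposited table holds log2 values, its scale unstated; 100% of its values for 45598 probes lay within 0.1 of log2 intensity minus the 75th percentile, and it served as an alternative.

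Flagged spots were left out (489 and 660 of 58717), log2 intensities were averaged over the spots of a probe, and the 75th percentile was subtracted, after the methods of the paper. A probe was above background when more than 50% of its spots were so marked. A gene was its probe with the highest mean. A gene above background on 1 array was given a lower bound against the higher of its own signal and the lowest signal above background on the dim array. No p-value was computed, and the number of arrays limits the precision. The genes named were all 37 fat cell genes, the 3 highest and 3 lowest of the other fat cell genes, the extremes of each other list measured on both arrays (some items are not reported here), and some chosen after their values were seen (Adrb3, Mlxipl, Rbp4, Gpam, Lpin1, Cd3d, Scd1, Ebf2). Alternatives changed the background correction, scaling, filter, flagged spots, rule for probes and bound. The genes and lists were chosen with earlier results of these data known. Of 36 chosen probes, 32 carried an accession found for a gene in the RefSeq GRCr8 table. The steps were tested on simulated data. Normexp was run in limma 3.58.1 under R 4.3.3. All other steps were run in Python 3.11.15 (pandas 2.3.3, numpy 2.4.6), and figures were drawn by matplotlib 3.10.9.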

Additional observations from a re-analysis of the deposited data

How the results depend on the processing

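No paired analysis was possible because C and RS had a single array apiece. Of 335 differences of single fat cell genes under the alternatives, 317 moved by less than the spot error. None of a gene past 2-fold changed sign. The alternatives of the filter and bound could not move these values, because all 28 genes were above background on both arrays. With normexp, 11 of the 28 values moved by the spot error or more. Cd36 turned to 0.36 with the mean over probes, which gave equal weight to its dim other probe (5.30 and 8.52). Of the 15 genes past 2-fold, 11 stayed so in every alternative. The exceptions were Cfd without normalization (0.99) and Slc2a4, Agpat2, and Cidea with normexp (0.42, 0.51, and 0.58). The number of genes higher by 2-fold or more stayed between 12 of 28 (normexp) and 16 of 36 (no background filter). The share of all genes higher by 2-fold or more was 1.1% and 5.6% under these settings. With normexp, the medians were 0.73 for all fat cell genes, 2.48 for adipokines, 1.31 for the droplet coat, 0.28 for lipolysis, 0.72 for uptake and transport, 0.52 for lipogenesis, 0.79 for the transcription factors, 0.58 for brown fat, and 0.45 for the other fat cell genes; the offset shrinks differences of dim genes by construction. Without a background filter, which admits genes at noise level, the medians were 0.88 for all fat cell genes, 0.98 for the droplet coat, 0.60 for the fasting genes, and -0.32 for brown fat, which reversed, and 1 fat cell gene (Ppargc1a) was lower by 2-fold or more. Of the other brown fat genes, 1 (Ebf2) was past 2-fold with no filter, with the mean over probes, or with a plain ratio used for the bound. With alternating probes left out, an alternative added after the data were seen, 1 of the other fat cell genes was lower by 2-fold or more. Under every scaling tried, the all-gene median shifted by less than 0.1.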
